A study of Mus musculus with 16 samples.

Results

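Cemip, Ntrk3, Slc1a3, Mmp2, Cgn, Fam111a and Gstp1 are 7 mouse genes chosen by measured values, out of 55291 in the expression table, because their change on withdrawal of LIF differed between embryonic stem cells carrying the Q418R form of CTCF and cells carrying the wild-type form. The rule names the genes and states no threshold. All 7 passed the filter on low values (normalised counts averaging 10 or more across 16 libraries), as did 17757 genes in all. The values that chose them, the medium responses in the WT and Q418R lines, are therefore given as a description without a test. The R342C and K365T lines had no part in the choice, and tests of these genes were made there.

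The cells were feeder-free E14Tg2a mouse embryonic stem cells of 129/Ola background. In every group, WT included, the endogenous CTCF carried a degron and was depleted with 500 µM auxin (IAA), while 1 µg/ml doxycycline induced a CTCF transgene, both for 2 days. The transgene was WT, R342C, K365T or Q418R, the last 3 being single amino acid substitutions. Each line was grown with 15% serum, LIF, 3 µM CHIR99021 and 1 µM PD0325901 (here "LIF") or for 3 days without those 3 additions (here "no LIF"). Each of the 8 combinations had 2 libraries of stranded, ribosome-depleted total RNA. A genotype is a single line here, so that the substitution and the line cannot be told apart. The labels do not say that the 2 libraries of a group came from separate cultures, so p-values measure the spread between these samples, which may be technical.

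CTCF is a zinc-finger protein that binds DNA, halts cohesin and so helps to set the borders of chromatin loops and domains. LIF together with inhibitors of GSK3 (CHIR99021) and MEK (PD0325901) holds mouse embryonic stem cells in naive pluripotency, and their removal lets the cells move to a formative state. The 7 genes have no pathway in common. Cemip (a hyaluronan-binding protein needed for hyaluronan breakdown) and Mmp2 (gelatinase A, a secreted matrix protease) act on the extracellular matrix. Ntrk3 (TrkC, the receptor of neurotrophin-3) and Slc1a3 (the glutamate transporter GLAST) sit in the plasma membrane. Cgn (cingulin) links tight junctions to the cytoskeleton. Fam111a is a PCNA-binding nuclear protease that acts at replication forks, and Gstp1 is a cytosolic glutathione S-transferase.

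The genes lie on 5 chromosomes of mm10 (GENCODE M21). Cemip (chr7:83932857-84086502, minus strand) and Ntrk3 (chr7:78175959-78738012, minus strand) share chromosome 7, with 5.35 Mb between their starts. Fam111a (chr19:12545740-12589768, plus strand) and Gstp1 (chr19:4035407-4037985, minus strand) share chromosome 19, with 8.51 Mb between them. Slc1a3 is at chr15:8634124-8710764 on the minus strand, Mmp2 at chr8:92827291-92853420 on the plus strand and Cgn at chr3:94760069-94786492 on the minus strand. RefSeq promoters of build GRCm38.p6 were matched for 5 of the 7 genes, Ntrk3 and Mmp2 being the other 2. Because the altered protein binds DNA and these genes differed together between the same lines, the 250 bases upstream of a RefSeq start are shown for each, 5′ to 3′ on the gene's own strand. Fam111a has 2 such entries, of which 1 is shown, and both lie inside the GENCODE span of the gene, downstream of its first base. The Cgn and Gstp1 windows also reach in part into the GENCODE spans of their genes. Capitals mark matches on either strand to CCAAT (the CAAT box), to TATAAA (the TATA box) or to TGANTCA (an AP-1 type motif), which were selected after the sequences were seen.
Cemip (chr7:84086506-84086755, minus strand): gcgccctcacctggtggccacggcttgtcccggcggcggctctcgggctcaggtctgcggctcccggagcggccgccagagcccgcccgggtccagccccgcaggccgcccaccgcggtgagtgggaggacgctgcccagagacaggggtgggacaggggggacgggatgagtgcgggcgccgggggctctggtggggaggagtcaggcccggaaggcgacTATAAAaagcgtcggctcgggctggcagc
Slc1a3 (chr15:8710808-8711057, minus strand): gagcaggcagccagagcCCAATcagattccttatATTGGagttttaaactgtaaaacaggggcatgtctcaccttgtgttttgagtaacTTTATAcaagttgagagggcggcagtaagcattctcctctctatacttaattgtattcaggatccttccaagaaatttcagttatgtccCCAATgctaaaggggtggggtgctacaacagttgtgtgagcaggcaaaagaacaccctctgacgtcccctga
Cgn (chr3:94786483-94786732, minus strand): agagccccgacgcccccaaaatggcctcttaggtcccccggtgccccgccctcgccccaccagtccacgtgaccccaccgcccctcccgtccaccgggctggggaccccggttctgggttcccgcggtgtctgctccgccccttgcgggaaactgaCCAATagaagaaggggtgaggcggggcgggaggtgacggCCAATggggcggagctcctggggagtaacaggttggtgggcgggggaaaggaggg
Fam111a (chr19:12573260-12573509, plus strand): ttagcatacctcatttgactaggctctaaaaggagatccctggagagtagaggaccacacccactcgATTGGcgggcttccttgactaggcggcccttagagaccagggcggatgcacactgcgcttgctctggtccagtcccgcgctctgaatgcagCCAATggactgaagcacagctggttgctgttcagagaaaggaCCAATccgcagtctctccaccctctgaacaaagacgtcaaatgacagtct
Gstp1 (chr19:4037913-4038162, minus strand): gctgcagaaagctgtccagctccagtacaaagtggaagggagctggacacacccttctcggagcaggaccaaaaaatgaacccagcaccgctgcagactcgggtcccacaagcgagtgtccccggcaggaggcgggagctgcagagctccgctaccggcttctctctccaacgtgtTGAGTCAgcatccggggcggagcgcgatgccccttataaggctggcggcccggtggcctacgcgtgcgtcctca
The core of the CTCF motif was searched on both strands. It matched none of the 5 and 2.43% of the 32851 RefSeq promoters of the same length. CCAAT stood in the Cgn, Slc1a3 and Fam111a promoters and in 37.4% of all promoters. TATAAA stood 29 bases before the Cemip start and, on the minus strand, in the Slc1a3 promoter, and in 13.6% of all. TGANTCA stood 74 bases before the RefSeq start of Gstp1 and in 7.81% of all. No motif searched was in all 5 promoters, and the windows ranged from 44.8% G+C (Slc1a3) to 75.2% (Cemip), with a median of 52.4% over all promoters. A match is a description of the letters, not a binding site.

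Recovered read totals were 19721363 to 31935381 per library. Ctcf reads from the transgene and the endogenous gene were not separated here, and the level differed between lines. With LIF it was 5853 to 6956 normalised counts (WT), 6194 to 6449 (R342C), 6944 to 8585 (K365T) and 7369 to 8375 (Q418R). Without LIF it was 5292 to 6242 (WT), 5589 to 6032 (R342C), 6541 to 6574 (K365T) and 6241 to 8406 (Q418R). The part of the Ctcf level in the results below was not tested. The markers followed the media labels: all 11 naive markers (Nanog, Klf4, Esrrb and others) fell without LIF in each of the 4 lines, and 6 or 7 of 7 formative markers rose (limma, adjusted p under 0.05). One library stood apart in RNA content. WT no LIF replicate 2 had 5.02% of its counts in structural RNA genes, against 1.97% to 3.88% in the other 15. Another stood apart in its markers, K365T no LIF replicate 1, whose naive markers summed to 30507 normalised counts against 11310 to 14480 in the 7 other no LIF libraries. Tests of the 7 genes that rest on either are given below also without it, and so is the contrast that chose them. The counts of markers that rose or fell are given with all libraries only.

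Per transcript length, Gstp1 was the most abundant of the 7 in both media. In the WT line with LIF its mean was 87.2 TPM, against 4.46 for Cemip, 4.0 for Cgn, 3.48 for Fam111a, 2.77 for Ntrk3, 1.56 for Mmp2 and 1.53 for Slc1a3. Without LIF the WT means were 271 TPM for Gstp1, 52.3 for Mmp2, 45.5 for Cgn, 24.1 for Slc1a3 and 10.8 for Fam111a, while Ntrk3 and Cemip were at 0.016 and 0.0155 TPM. The genes thus form 2 kinds in the WT line, 2 with far lower and 5 with higher levels without LIF. In bulk RNA, fewer cells with a transcript and less of it per cell cannot be told apart.

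**Figure D1:**
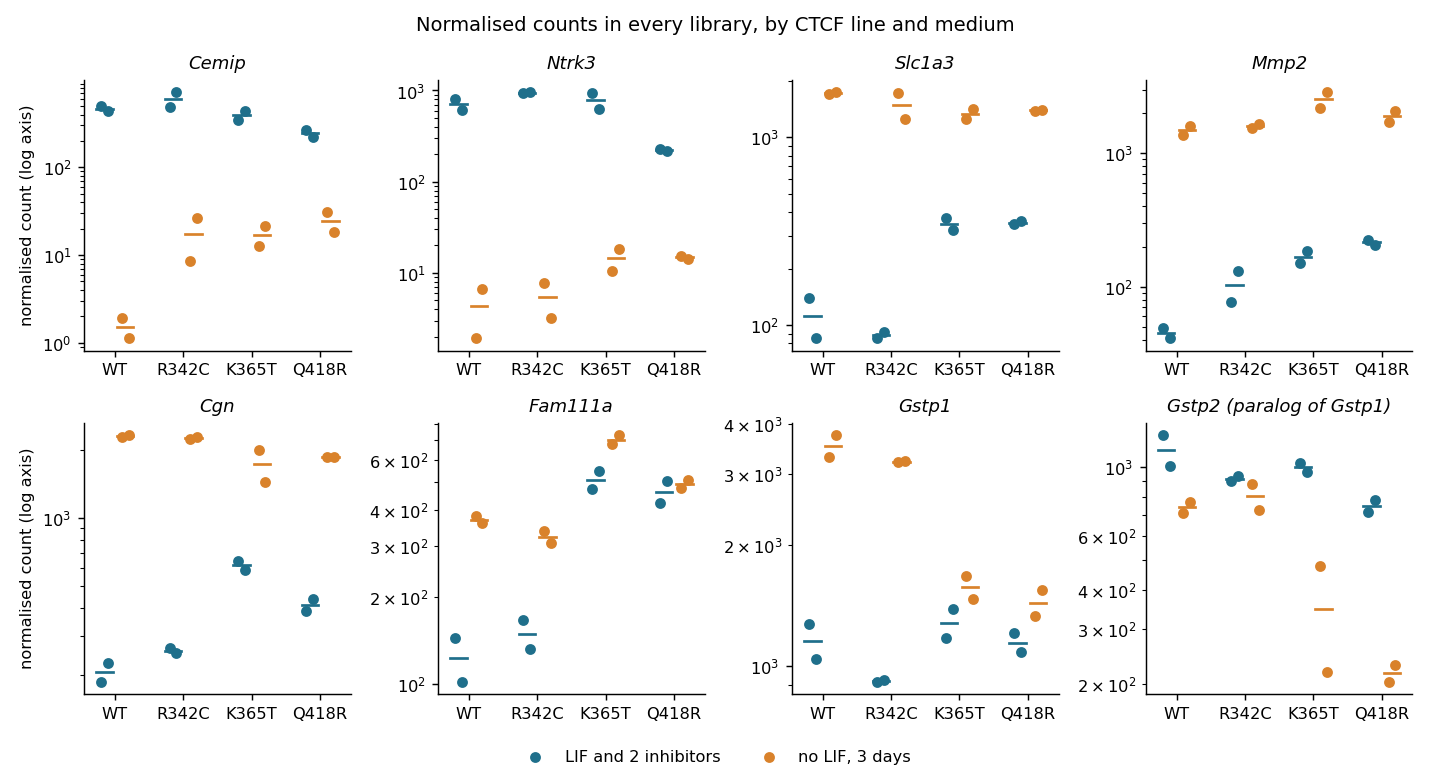
Normalised counts (log axis, a separate range per panel) of the 7 genes and of Gstp2 in every library, by CTCF line; each point is a library and each bar the mean of 2. For Slc1a3 the WT and R342C lines with LIF sit between 85.0 and 139, the K365T and Q418R lines between 322 and 370.3.

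Cemip was read almost only with LIF. Its normalised counts with LIF were 498 and 437 (WT), 493 and 721 (R342C), 343 and 443 (K365T) and 268 and 219 (Q418R). Without LIF they were 1.91 and 1.12 (WT), 8.61 and 26.5 (R342C), 12.6 and 21.7 (K365T) and 30.8 and 18.3 (Q418R). The Q418R libraries were thus the lowest of the lines with LIF, and both WT libraries were below all others without it. The WT value without LIF rests on 3 reads over both libraries, so the ratio of LIF to no LIF was 305 with a 95% exact binomial interval of 104 to 1481. It was 35.9 (25.7 to 51.8) in R342C, 23.3 (16.2 to 34.5) in K365T and 9.93 (7.32 to 13.8) in Q418R, where 46 reads stood against 445. These intervals cover counting error only.

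Mmp2 had the opposite course. With LIF its normalised counts were 49.1 and 41.1 (WT), 77.1 and 130.3 (R342C), 151 and 185 (K365T) and 223 and 207 (Q418R). Its counts without LIF were 1369 and 1600.4 (WT), 1534 and 1644 (R342C), 2183 and 2875 (K365T) and 1729 and 2073 (Q418R). With LIF the 4 lines did not overlap, from WT as the lowest to Q418R as the highest. Without LIF the order was different, with K365T highest, then Q418R, and the WT and R342C libraries overlapping. Mmp2 is also a gene of fibroblasts and of parietal endoderm, so markers of both are given with it. The 12 fibroblast markers summed to 231 to 257 normalised counts in WT with LIF, 296 to 355 in Q418R with LIF, and 1700.5 to 3183 without LIF over all lines, with S100a4 at 0 in every library. The 12 endoderm markers summed to 7625 to 7647 in WT and 6924 to 7411 in Q418R with LIF. Without LIF they summed to 12701 and 20833 in WT replicates 1 and 2, 10894 to 11940 in Q418R and 10010.0 to 20833 over all lines. The value of 20833 is that of the library apart in structural RNA. Without it the highest sum was 14797, in R342C replicate 1. Of 8 fibroblast markers tested, 7 rose and 0 fell without LIF in WT and in Q418R, 6 and 0 in R342C, and 8 and 0 in K365T (limma, adjusted p under 0.05). For scale, 22.3% of all genes rose in R342C and 20.5% in K365T. The endoderm markers did not move as a set. Of 11 tested, 6 rose and 3 fell in WT, and 7 rose and 2 fell in Q418R (limma, adjusted p under 0.05). In WT the mean of Lamb1 went from 437 to 11967 (SD 5856 over the 2 libraries without LIF) and that of Sparc from 6025.5 to 2185. The part of either marker list in the Mmp2 values was not tested.

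Ntrk3 followed Cemip in direction. With LIF its normalised counts were 811 and 618 (WT), 935 and 960.5 (R342C), 949 and 632 (K365T) and 228 and 217 (Q418R). The no LIF counts were 1.91 and 6.73 (WT), 7.75 and 3.18 (R342C), 10.5 and 18.2 (K365T) and 15.4 and 14.3 (Q418R). With LIF the Q418R libraries stood apart below those of the 3 other lines, which overlapped. Without LIF the Q418R and K365T libraries were all above the WT and R342C ones, at a few reads each. The nearest were K365T replicate 1 with 10 reads and R342C replicate 1 with 9. The ratio of LIF to no LIF was 177 (95% exact binomial interval 89.5 to 410.1, 1614 reads against 8) in WT, 166 (94.8 to 322) in R342C, 55.1 (37.5 to 84.7) in K365T and 15.0 (10.2 to 22.8) in Q418R.

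Slc1a3 separated the lines in pairs with LIF only. Its normalised counts with LIF were 139 and 85.4 (WT), 85.0 and 92.1 (R342C), 370.3 and 322 (K365T) and 346 and 356 (Q418R). Without LIF they were 1694 and 1744 (WT), 1722 and 1261 (R342C), 1249.7 and 1410.0 (K365T) and 1375 and 1407 (Q418R). The K365T and Q418R libraries with LIF lay above every WT and R342C library and overlapped each other. Without LIF, neighbouring lines in the order WT, R342C, Q418R, K365T overlapped.

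Cgn had normalised counts with LIF of 188 and 228 (WT), 264 and 250.4 (R342C), 646 and 584 (K365T) and 385 and 438 (Q418R). The libraries without LIF had 2273 and 2324 (WT), 2242 and 2279 (R342C), 2006 and 1442 (K365T) and 1868 and 1870.2 (Q418R). With LIF no line overlapped another, and the order was WT, R342C, Q418R, K365T from low to high. Without LIF both Q418R libraries were below all WT and R342C ones and within the range of the K365T ones.

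Fam111a was the gene for which the medium mattered least in Q418R. Its normalised counts with LIF were 144 and 102 (WT), 166 and 132 (R342C), 475 and 548 (K365T) and 423 and 506 (Q418R). Once LIF was removed they were 382 and 360.3 (WT), 338 and 308 (R342C), 681 and 729 (K365T) and 479 and 510.3 (Q418R). In Q418R the libraries of the 2 media overlapped, while in the 3 other lines they did not. Every K365T and Q418R library, in either medium, was above every WT and R342C library. An antisense pseudogene, Gm16274, overlaps 592 of 4125 exon bases of Fam111a, with a mean normalised count of 0.123.

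Gstp1 was close between lines with LIF and far apart without it. With LIF its normalised counts were 1270.2 and 1044 (WT), 917 and 927 (R342C), 1173 and 1388 (K365T) and 1207 and 1083 (Q418R). Without LIF they were 3302 and 3743 (WT), 3214 and 3227 (R342C), 1671 and 1467 (K365T) and 1331 and 1543 (Q418R). The K365T and Q418R libraries without LIF overlapped each other and lay below all WT and R342C ones. The neighbouring paralog Gstp2 (chr19:4040285-4046023, minus strand) is 94.2% identical over 798 aligned transcript bases, with an identical stretch of 369 bases that is longer than a 150 bp read. The split of reads between the pair is therefore uncertain, and the sum of both was taken as well.

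The sum of Gstp1 and Gstp2 with LIF was 2533 and 2052 (WT), 1813 and 1859 (R342C), 2201 and 2350.5 (K365T) and 1923 and 1864 (Q418R). Without LIF it was 4011 and 4513 (WT), 4096 and 3955 (R342C), 2151 and 1685 (K365T) and 1534 and 1772 (Q418R). In WT and R342C both libraries without LIF were above both with LIF, and in K365T and Q418R both were below. Gstp2 alone had means without LIF of 740 in WT, 805 in R342C, 349 in K365T and 216 in Q418R, each over 2 libraries.

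On the log2(normalised count + 4) scale used for the fits, the medium responses (no LIF minus LIF) in WT, R342C, K365T and Q418R were −6.42, −4.94, −4.25 and −3.14 for Cemip. For Ntrk3 they were −6.48, −6.70, −5.44 and −3.59. The 4 responses of Mmp2, in the same order of lines, were 4.92, 3.93, 3.87 and 3.12, and those of Slc1a3 were 3.93, 4.0, 1.93 and 1.97. Cgn had 3.45, 3.12, 1.46 and 2.18, Fam111a 1.58, 1.10, 0.46 and 0.10, and Gstp1 1.61, 1.80, 0.29 and 0.32. In all 7 genes the Q418R response was nearer to 0 than the WT one, with the same sign, and so was the K365T response. For Slc1a3, Cgn and Gstp1 the K365T response was the nearest to 0 of the 4. The R342C response was nearer to 0 than the WT one for Cemip, Mmp2, Cgn and Fam111a only. All these comparisons share the WT libraries. For the genes at a few reads without LIF, Cemip and Ntrk3, these values depend on the pseudocount of 4.

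**Figure D2:**
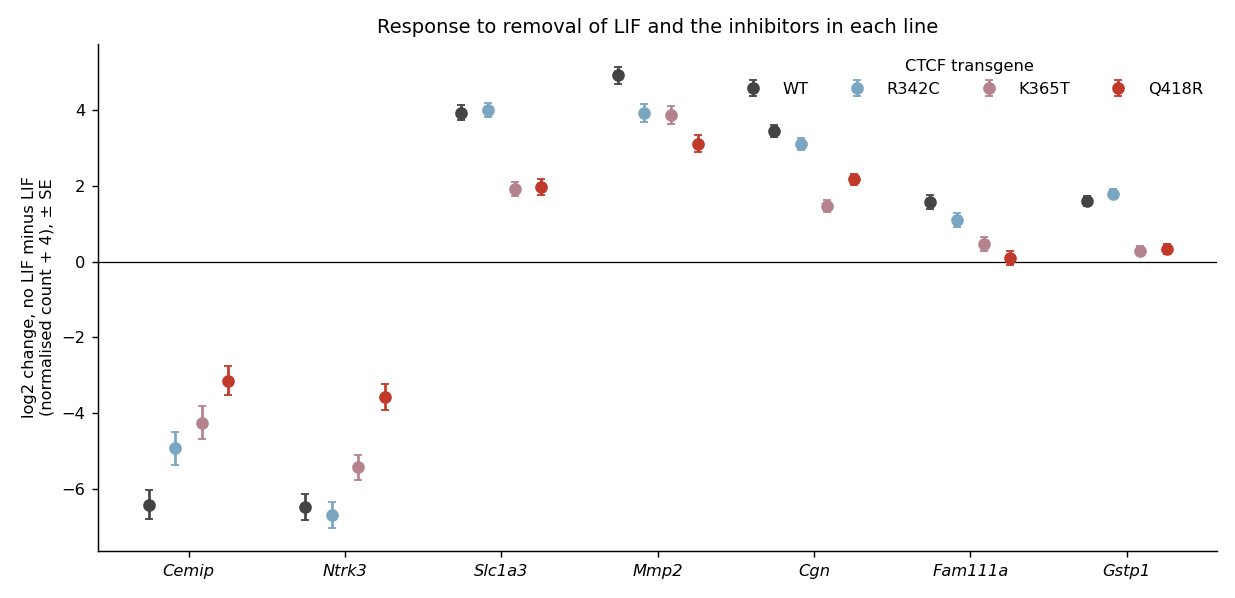
Medium response of each gene (no LIF minus LIF, log2 of the normalised count + 4) in the 4 lines, with bars of 1 standard error of the fit. Q418R points and K365T points lie nearer to 0 than WT points for all 7 genes, and for Slc1a3 and Gstp1 the K365T points lie beside the Q418R ones.

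The Q418R response minus the WT response was 3.27 ± 0.55 (SE) for Cemip and 2.89 ± 0.48 for Ntrk3. It was −1.81 ± 0.31 for Mmp2, −1.96 ± 0.28 for Slc1a3, −1.27 ± 0.22 for Cgn, −1.49 ± 0.27 for Fam111a and −1.28 ± 0.19 for Gstp1. In this contrast, which chose the genes, 25 of 17757 genes were called (0.141%, with 0.0901% higher and 0.0507% lower). The 7 are among them by choice. That fit took its spread from all 16 libraries, R342C and K365T included. Without WT no LIF replicate 2, the library apart in structural RNA, the differences were 3.17, 3.32, −1.70, −1.94, −1.26, −1.53 and −1.19 in the same order, but 0 genes of the table were called by limma, 1009 having an unadjusted p under 0.05. The number of genes called was 0 to 51 when 1 library of the 16 was left out.

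The 7 genes differed between Q418R and WT in different media. For Slc1a3, Mmp2, Cgn and Fam111a the larger part was with LIF, where Q418R minus WT was 1.65, 2.16, 0.98 and 1.90 on the log2 scale. Without LIF the same differences were −0.30, 0.35, −0.30 and 0.41. For Gstp1 it was −0.01 with LIF and −1.29 without. For Cemip it was −0.93 with LIF and 2.34 without, and for Ntrk3 −1.65 and 1.24, so that both media contributed with opposite signs.

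**Figure D3:**
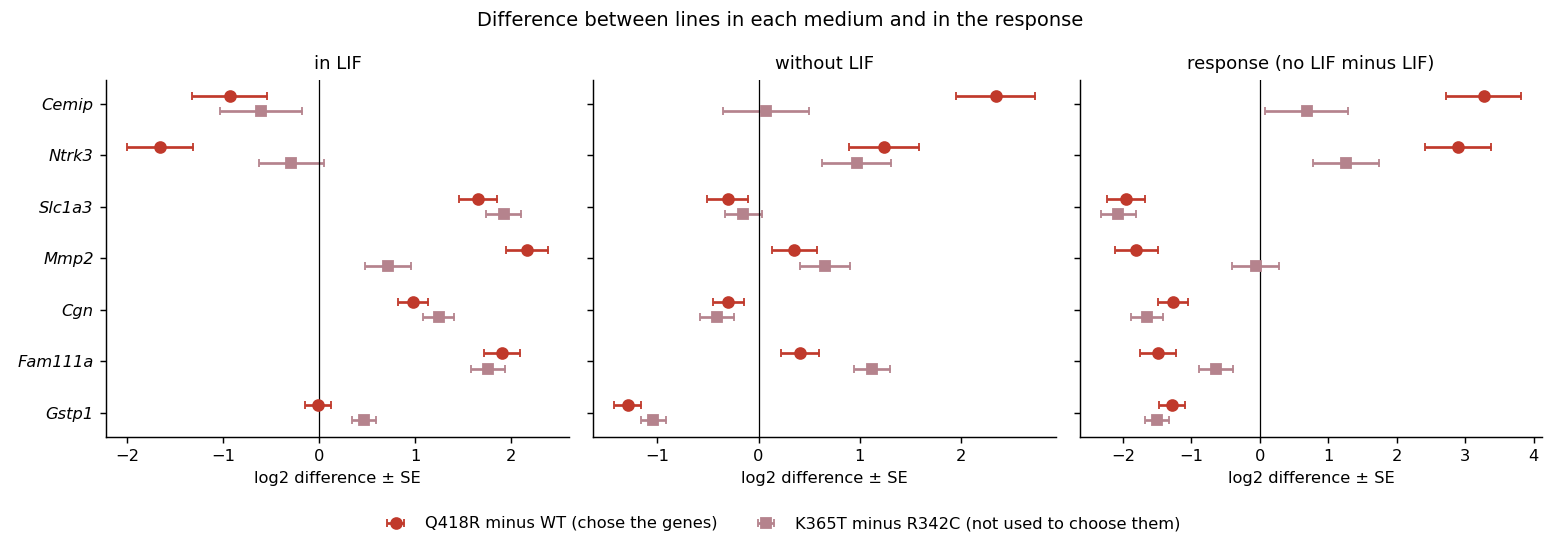
Log2 differences (± 1 SE) between lines with LIF, without LIF and in the response, for Q418R minus WT (circles, which chose the genes) and K365T minus R342C (squares, which share no library with them). The squares of Slc1a3, Cgn and Gstp1 in the response panel are at −2.07, −1.65 and −1.51.

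In the R342C line, 5 of the 7 genes rose without LIF (Slc1a3, Mmp2, Cgn, Fam111a and Gstp1) and 2 fell (Cemip and Ntrk3). These tests used limma on the 8 R342C and K365T libraries with Benjamini-Hochberg adjustment over 17757 genes. Of all genes 45.1% were called in R342C, 22.3% higher and 22.8% lower, so that a response to the medium is common. Adjusted p-values ran from 7.43e-07 (Slc1a3) to 0.000788 (Fam111a), and the 7 calls held under every alternative tried.

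In the K365T line 3 rose (Slc1a3, Mmp2 and Cgn) and 2 fell (Cemip and Ntrk3), against a background of 42.3% called, 20.5% higher and 21.9% lower. Fam111a at 0.46 ± 0.18 (limma, adjusted p = 0.0625) and Gstp1 at 0.29 ± 0.13 (adjusted p = 0.0868) were not called. Without K365T no LIF replicate 1, the library with the high naive markers, the same 5 genes were called, and Fam111a was at 0.51 (adjusted p = 0.0896) and Gstp1 at 0.20 (adjusted p = 0.304). Fam111a passed the threshold with DESeq2 (adjusted p = 0.0485) and upper-quartile scaling (0.0321), and Gstp1 with upper-quartile scaling (0.0300).

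The response in K365T was lower than that in R342C for 3 of the 7 genes and for 0.0845% of all genes, and higher for none of the 7 and 0.0394% of all genes, 0.124% being called in either direction (limma, Benjamini-Hochberg). Slc1a3 differed by −2.07 ± 0.26 (adjusted p = 0.0409), Gstp1 by −1.51 ± 0.18 (adjusted p = 0.0349) and Cgn by −1.65 ± 0.23 (adjusted p = 0.0446). The other 4 were not called: Cemip at 0.68 ± 0.60, Ntrk3 at 1.26 ± 0.48, Mmp2 at −0.06 ± 0.34 and Fam111a at −0.64 ± 0.25, with adjusted p of 0.829, 0.433, 0.986 and 0.448. A p above the threshold does not show that the 2 responses were alike. The median of the 7 was −0.64, against −0.02 over all genes.

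These 3 calls were near the threshold and hung on single libraries, while the sizes moved little. Left out in turn were K365T LIF replicates 1 and 2, R342C LIF replicates 1 and 2, and R342C no LIF replicates 1 and 2, and each omission ended all 3 calls. In that order, Slc1a3 was at −1.97, −2.17, −2.01, −2.12, −1.84 and −2.29 (limma, adjusted p = 0.140, 0.124, 0.284, 0.199, 0.124 and 0.0649). Cgn was at −1.58, −1.73, −1.69, −1.62, −1.67 and −1.64 (limma, adjusted p = 0.182, 0.186, 0.288, 0.320, 0.172 and 0.181). Gstp1 was at −1.63, −1.39, −1.50, −1.51, −1.51 and −1.50 (limma, adjusted p = 0.0761, 0.117, 0.284, 0.199, 0.124 and 0.134). Without K365T no LIF replicate 1 the 3 were called again, Slc1a3 at −1.98, Cgn at −1.89 and Gstp1 at −1.60 (limma, adjusted p = 0.0135, 0.00341 and 0.00513), with 192 genes called in the table. With TPM none of the 3 was called (adjusted p = 0.189, 0.107 and 0.0944).

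Within each medium, K365T and R342C were compared as levels. With LIF, 3 of the 7 were higher in K365T and none lower, where 6.45% of all genes were called, 3.86% higher and 2.59% lower. Slc1a3 was higher by 1.92 ± 0.18 (limma, adjusted p = 0.00215) and Fam111a by 1.76 ± 0.18 (adjusted p = 0.00253), both called under every alternative. Cgn was higher by 1.24 ± 0.16 (adjusted p = 0.00638). The Cgn call was lost without any of the 4 libraries: at 1.17 and 1.32 without K365T LIF replicates 1 and 2, and at 1.28 and 1.21 without R342C LIF replicates 1 and 2 (limma, adjusted p = 0.0519, 0.0589, 0.0582 and 0.0799). Gstp1 was at 0.47 ± 0.13 and not called (adjusted p = 0.0592), but passed without K365T no LIF replicate 1 or 2 (adjusted p = 0.0321 for each), with upper-quartile scaling (0.0476), with DESeq2 (0.0290) and with all 16 libraries in the fit (0.0437).

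Without LIF, Gstp1 was lower in K365T than in R342C by −1.04 ± 0.13 (limma, adjusted p = 0.00421), called under every alternative, and Fam111a was higher by 1.12 ± 0.18 (adjusted p = 0.0114). Of all genes 5.77% were called, 2.96% higher and 2.81% lower. The Fam111a call was lost without R342C no LIF replicate 1 (1.19, adjusted p = 0.0609) or replicate 2 (1.05, adjusted p = 0.0784). Without K365T no LIF replicate 1, Gstp1 was at −1.13 (adjusted p = 0.00226), Fam111a at 1.17 (adjusted p = 0.0116), and Cgn passed as lower at −0.65 (adjusted p = 0.0306), having been at −0.41 (adjusted p = 0.174). Mmp2, at 0.66 and not called (adjusted p = 0.146), passed with DESeq2 (adjusted p = 0.0320). The paralog Gstp2 was lower in K365T by −1.30 ± 0.29 (adjusted p = 0.0367).

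The response difference K365T minus R342C had the same sign as Q418R minus WT in 7 of the 7 genes, in 22 of the 25 genes called in the latter contrast (88%), and in 60.3% of 17757 genes. The 7 are among those 25. The 2 contrasts share no library, but the 25 were called with a spread taken from all libraries, R342C and K365T included. Mmp2, at −0.06 in the former, changed sign in 4 alternatives, leaving 6 of 7.

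Each gene was set beside a list of genes of its own pathway. In the Q418R minus WT response, 0 of the 139 tested genes of the 7 lists, the 7 genes left out, were called by limma or edgeR. Over all 17757 genes limma called 25 (0.141%) and edgeR 20, so that 0 of 139 is near the share of all genes. DESeq2 called 2 of the 139, Slc38a3 at −1.88 (adjusted p = 0.00558) and Gsto1 at −1.14 (adjusted p = 0.0248), and 162 over all genes. An unadjusted limma p under 0.05 was found for 18 of the 139, against 8.41% of all genes. Over the lists 59 values were above 0 and 80 below, with a median of −0.10 (0.00 over all genes). The median was 0.09 for 14 genes of hyaluronan turnover, −0.09 for 19 of neurotrophin signalling and −0.11 for 13 of glutamate transport and glutamine metabolism. It was 0.14 for 16 matrix metalloproteinases and inhibitors, 0.04 for 28 tight junction genes, −0.12 for 22 PCNA and replication fork genes and −0.39 for 27 glutathione genes.

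**Figure D4:**
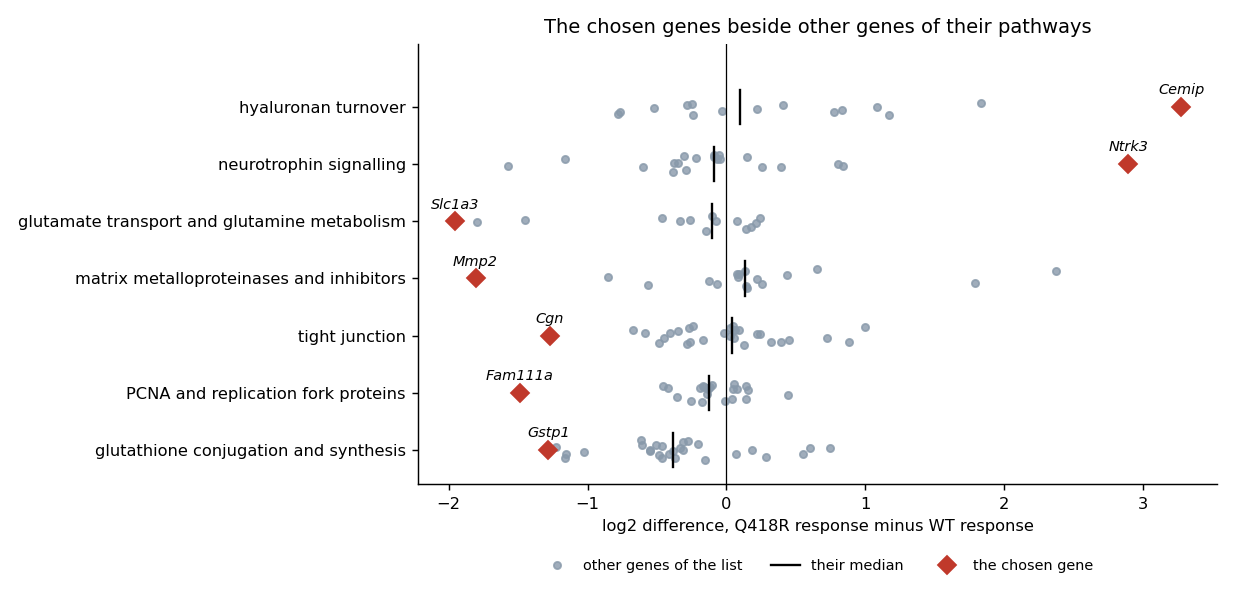
Q418R response minus WT response (log2) of each chosen gene (diamond) and of the other tested genes of its pathway list (circles; bar, their median). The diamonds lie at one end of each list by the way they were picked; the list medians lie between −0.39 and 0.14.

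Named by abundance, the pairs of each list were as follows. For hyaluronan, Hmmr (a hyaluronan-binding receptor) was at −0.29 ± 0.24 and Cemip2 (a cell-surface hyaluronidase and paralog of Cemip) at −0.77 ± 0.38. For neurotrophins, Ptprs (a receptor phosphatase) was at 0.15 ± 0.34 and Shc1 (a receptor adaptor) at −0.37 ± 0.16. The paralog Ntrk2 (TrkB, the receptor of BDNF) was at −1.16 ± 0.49 and was not called.

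Of the paralogs of Slc1a3, the neuronal glutamate transporter Slc1a1 had the reverse course, from a mean of 1144 to 22.8 normalised counts in WT and from 815 to 19.7 in Q418R. Its response difference was 0.24 ± 0.53. Slc1a2, Slc1a4, Slc1a5 and Slc1a6 were at −0.46 ± 0.52, 0.08 ± 0.35, −0.26 ± 0.29 and 0.18 ± 0.43. Slc1a2, the main astrocyte transporter, was listed at 0 in all WT and R342C libraries with LIF and had means of 22.2 to 27.1 without it. Glud1 (glutamate dehydrogenase) and Slc38a2 (a glutamine transporter) were at −0.33 ± 0.20 and 0.14 ± 0.23.

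Among the proteases and inhibitors, Bsg (basigin, an inducer of matrix metalloproteinases) was at 0.09 ± 0.16 and Mmp11 at 0.26 ± 0.36. The junction genes Ybx3 and Tjp1 (ZO-1, a partner of cingulin) were at −0.29 ± 0.21 and 0.03 ± 0.17. Uhrf1 and Dnmt1, which maintain DNA methylation behind the fork, were at 0.05 ± 0.14 and −0.17 ± 0.16. Gsta4 and Gpx4 were at −0.37 ± 0.21 and 0.75 ± 0.43. In the Gstp family, Gstp2 was at −1.17 ± 0.36 (limma, adjusted p = 0.323), called when K365T no LIF replicate 1 (adjusted p = 0.0404) or 2 (adjusted p = 0.0399) was left out, and Gstp3 at −0.48 ± 0.43.

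Genes around the 7 were compared in the same contrast. Within 500 kb there were 110 tested genes, of which 0 were called by limma, edgeR or DESeq2 and 13 had an unadjusted limma p under 0.05. Over all genes limma called 0.141%, edgeR 20 genes and DESeq2 162 genes, and 8.41% had an unadjusted limma p under 0.05. The median of the 110 was −0.11. The nearest genes with a mean of at least 100, at any distance, were Mesd at −0.18 ± 0.15 and Abhd17c at 0.26 ± 0.18 around Cemip, and Klhl25 (2890 kb away) at 0.38 ± 0.32 and Mrps11 at 0.10 ± 0.22 around Ntrk3. Around Slc1a3 were Nipbl (the cohesin loader) at 0.06 ± 0.14 and Nadk2 at −0.41 ± 0.18, and around Mmp2, Fto (1514 kb away) at −0.05 ± 0.16 and Gnao1 (983 kb away) at −0.06 ± 0.37. Around Cgn were Tuft1 at −0.998 ± 0.47 and Pogz at −0.01 ± 0.14, around Fam111a, Dtx4 at 0.04 ± 0.43 and Zfp91 at 0.01 ± 0.22, and beside Gstp1, Ndufv1 at −0.16 ± 0.16, Gstp2 being on its other side. Of the 91 tested genes between Ntrk3 and Cemip, 0 were called by limma, edgeR or DESeq2 and 14 had an unadjusted limma p under 0.05, to be read against the same 0.141% and 8.41% of all genes. Their median was 0.10.

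Likeness to other genes was measured as Pearson's r of log2(normalised count + 4) over the 16 libraries, among 11166 genes with a mean of at least 100. The libraries fall into 2 media, a split that all these values share. For Cemip, Anapc10 (0.98), Irak3 and Prss35 were most alike, with 907 genes above 0.9, and for Ntrk3, Sh2d4a (0.99), Emp1 and Elf4, with 950. For Slc1a3 they were Serf1 (0.98), Slc20a2 and Kif1a, for Mmp2, Gatm (0.99), Myh6 and Ptprn, and for Cgn, Pcbp3 (0.98), Tdrd5 and Ica1, with 416, 699 and 696 above 0.9. Fam111a and Gstp1 had few genes like them. Slc43a3 (0.92), Mecr and Asnsd1 led for Fam111a, with 8 above 0.9, and Scaf11 (0.95), Dvl1 and Dnph1 for Gstp1, with 31.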

How the data were processed

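Trim Galore, STAR and DESeq2 and the mm10 build are named, without their roles, in the submitters' processing notes. Versions, the counting tool and the annotation are not given in the sources used here. The authors deposited a signal table of normalised counts and a table of TPM values. Dividing each deposited column by its step (the value of 1 read) gave whole reads for 100% of values within 0.05, 19721363 to 31935381 per library.

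Normalised counts were tested as log2(value + 4) with limma 3.58.1 (R 4.3.3; trended variance, two-sided), for genes with a mean of at least 10, with Benjamini-Hochberg adjustment over 17757 genes and a threshold of 0.05. Tests of the 7 genes used the 8 R342C and K365T libraries; pathway, marker and neighbouring genes were tested on all 16. Counting intervals came from scipy 1.17.1. Alternatives were edgeR 4.0.16 and DESeq2 1.42.0 on recovered reads, deposited TPM (log2 of TPM + 0.1), other scalings, pseudocounts and filters, a replicate block, and each library left out. The limma test of the response difference was tested on simulated counts.

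The genes, lists and tests were chosen with earlier results of these data known. Named besides the 7 were the 3 genes most like each, list genes called or the 2 most abundant, Slc1a, Ntrk and Gstp paralogs, and the nearest gene with a mean of at least 100 on each side. Slc38a3, Gsto1 and Otx2 were named after their values were seen, the first 2 because DESeq2 called them and the last as a called marker. One gene that this rule names is not reported here. Protein sequences were not used here.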

Additional observations from a re-analysis of the deposited data

Results flagged for a closer look

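For 3 of the 7 genes the medium response differed between the K365T and R342C lines by the test of that difference (limma, 8 libraries, adjusted p under 0.05). The K365T response minus the R342C response was −2.07 on the log2 scale for Slc1a3, −1.65 for Cgn and −1.51 for Gstp1. Both libraries of each group lay on the same side for Slc1a3 and Cgn with LIF and for Gstp1 without LIF. Leaving out 1 of 6 libraries ended these calls, as given above.

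Of the 7 formative markers, 1 was called as different in response between Q418R and WT, where 0.141% of all genes were called. The median difference of these 7 markers was 0.39. The called marker was Otx2 (a transcription factor of the formative state), at 3.11 ± 0.44 (limma, all 16 libraries, adjusted p = 0.0394). Its mean normalised counts went from 76.8 to 398 in WT and from 25.9 to 1279 in Q418R, with 58.5 and 972 in K365T and 76.9 and 318 in R342C (n = 2 libraries each). The call was lost without Q418R LIF replicate 1 or 2, Q418R no LIF replicate 1 or 2, WT LIF replicate 1 or 2, or WT no LIF replicate 2, with differences of 3.01, 3.21, 3.23, 3.00, 3.09, 3.13 and 3.06 (limma, adjusted p = 0.130, 0.132, 0.160, 0.0900, 0.0916, 0.138 and 0.0913). It was also lost with TPM (adjusted p = 0.0951) and with no filter on low values (adjusted p = 0.0872).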

How the results depend on the processing

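Of 692 results for single genes under alternatives, 631 kept their direction and side of the threshold, 39 lost a call, 14 gained one and 8 changed sign. The number of the 7 genes called in the K365T minus R342C response was 3, with 0 under TPM, 1 under upper-quartile scaling and 0 to 3 with a library left out; fewer samples are part of that last setting. In K365T against R342C without LIF it was 2, and 1 to 3 with a library left out. The replicate numbers do not pair the samples by the labels, and same-numbered libraries deviated together in 13 of 28 group pairs (r over 0.1; range −0.387 to 0.448). With the replicate block the number called in K365T against R342C with LIF was 5 instead of 3, with Mmp2 and Gstp1 added. The block also brought Mmp2 without LIF (adjusted p = 0.0288) and the K365T response of Fam111a (adjusted p = 0.0458) past the threshold. Over all genes the block gave 138 calls instead of 22 for the K365T minus R342C response and 8 instead of 25 for Q418R minus WT.

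The Q418R minus WT response of Cemip was 4.93 with DESeq2, 4.81 with edgeR, 4.26 and 2.10 with pseudocounts of 1 and 16, and 2.51 with TPM. That of Ntrk3 was 3.53, 3.49, 3.40, 2.21 and 2.02 in the same order, and Mmp2 was at −1.57 with a pseudocount of 16. With a library left out the ranges were 2.46 to 3.32 for Ntrk3, −2.29 to −1.62 for Slc1a3, −1.73 to −1.24 for Fam111a and −1.42 to −1.14 for Gstp1. Depth limits Cemip and Ntrk3 without LIF. TPM moved the median of all genes in this contrast to 0.12. The number of genes called there was 25, with 162 by DESeq2, 20 by edgeR, 9 with upper-quartile scaling, 9 with the WT and Q418R libraries alone, and 0 by limma with TPM or with no filter (1215 and 2868 at an unadjusted p under 0.05).

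In the K365T minus R342C response the number called over all genes was 22, with 255 by DESeq2, 24 by edgeR, 7 with upper-quartile scaling, 1 with TPM and 388 with no filter, where Cgn was not called (adjusted p = 0.0805). Upper-quartile scaling kept Gstp1 there, with Slc1a3 at an adjusted p of 0.0503 and Cgn at 0.0607. Values near 0 changed sign: Mmp2 in that response (0.000871 with a pseudocount of 16, and −0.42 to 0.31 with a library left out, above 0 without K365T LIF replicate 2, K365T no LIF replicate 1 or R342C LIF replicate 1), Ntrk3 with LIF (−0.58 to 0.0025, above 0 without K365T LIF replicate 2), and, without LIF, Cemip (−0.56 to 0.71, below 0 without K365T no LIF replicate 2 or R342C no LIF replicate 1) and Slc1a3 (−0.37 to 0.074, above 0 without R342C no LIF replicate 1). Called in the pathway lists were 2 genes with DESeq2 and 0 to 1 with a library left out (Gstp2, or Mmp14 without WT no LIF replicate 1), and among the neighbours 0 to 1 (Gstp2). The alternatives for the count of shared signs and for Otx2 were chosen after seeing the data. The causes were not tested.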
